A study of Mus musculus with 12 samples.

Results

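ChIP-seq of H3K27ac, the acetylation of lysine 27 on histone H3, gave 1360 intervals in 4T1 cells whose share of the reads was lower with etomoxir in all 8 treated-to-untreated pairs of libraries. The intervals were chosen by these measured ratios, so the ratios describe the choice and are not a finding. They were chosen among the 24109 intervals with a mean deposited value of at least 50, which makes them 5.64% of these, and the whole table held 126464 intervals. The share is the number of reads in an interval divided by all reads in intervals of the same library, given per 1000000 reads (RPM). The 8 pairs set etomoxir against vehicle, etomoxir + SB204990 against vehicle, etomoxir + acetate against acetate, and etomoxir + SB204990 + acetate against acetate, each in set 1 and in set 2, the names used here for the pair of suffixes in the library titles. The labels do not say what the suffixes stand for. Each vehicle and each acetate library served as the denominator of 2 pairs, so the 8 ratios were not independent of each other. The same condition in the opposite direction was met by 1211 of the 24109 intervals.

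The 12 libraries came from wild-type 4T1 cells, a mouse mammary carcinoma line, kept for 48 h in vehicle, 5 mM acetate, 50 µM etomoxir, etomoxir + acetate, etomoxir + 50 µM SB204990, or all 3 agents together, with 2 libraries per group. SB204990 without etomoxir was not analysed here. Human chromatin (7.5%) had been added to every sample as a spike-in. No label says that the 2 libraries of a group came from separate cultures, so the p-values measure only the spread between these libraries, which may be technical. The smallest total of reads in intervals was 7179165 (etomoxir + SB204990, set 2) and the largest 16676442 (acetate, set 1). The smallest library also stood apart from the rest, with a mean correlation of 0.974 to the other libraries on the log2 share scale, against 0.982 to 0.987 for the others. Of the genes used to check the cell type, Krt8 and Cdh1, a keratin and a junction protein of epithelia, had summed deposited values of 3246 and 3523 and of 2146 and 2332 in the vehicle libraries, and Epcam and Krt19, also epithelial, 706 and 778 and 527 and 608. Ptprc, the pan-leukocyte gene, had 51.0 and 53.9, the fibroblast genes Pdgfra and Pdgfrb 39.3 and 46.0 and 5.14 and 13.5, and the endothelial genes Pecam1 and Cdh5 565 and 622 and 90.2 and 107.8. No interval of the table with a mean of at least 10 was named for Krt18.

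H3K27ac marks active promoters and enhancers, and is laid down by acetyltransferases that take the acetyl group from acetyl-CoA. Etomoxir inhibits carnitine palmitoyltransferase 1, the entry step of long-chain fatty acids into mitochondrial oxidation. SB204990 inhibits ATP citrate lyase, which makes acetyl-CoA from citrate outside mitochondria, and acetate can be turned into acetyl-CoA without either enzyme. Long H3K27ac intervals far from promoters are commonly read as clusters of enhancers.

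The rule concerns the share of the reads and not the amount of H3K27ac relative to the spike-in. On the deposited values, which are read counts multiplied by 1 spike-in factor per library, 17 intervals were lower in all 8 pairs, and 15 of the 1360 were among them. The median deposited log2 ratio over the 1360 intervals was 0.04 and -0.14 (set 1 and set 2) for etomoxir against vehicle, -0.62 and -0.35 for etomoxir + SB204990 against vehicle, 0.25 and 0.23 for etomoxir + acetate against acetate, and -0.48 and -0.03 for etomoxir + SB204990 + acetate against acetate. The corresponding medians over all 24109 intervals were 0.24 and 0.03, -0.35 and -0.12, 0.45 and 0.38, and -0.23 and 0.16. The factor of a library applies to all its intervals and cancels in the gap between the 1360 intervals and all intervals. That gap therefore repeats the choice by share and is not a finding. The median deposited value of the 1360 intervals was above that of the control in 3 of the 8 pairs. These were etomoxir against vehicle in set 1 and etomoxir + acetate against acetate in both sets. With size factors taken as the median of ratios over all intervals, 1290 intervals met the rule and 611 of the 1360 were among them. With the same factors taken over the 24109 intervals only, an alternative chosen after seeing the data, 1394 met it and 1291 of the 1360 were among them.

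**Figure D1:**
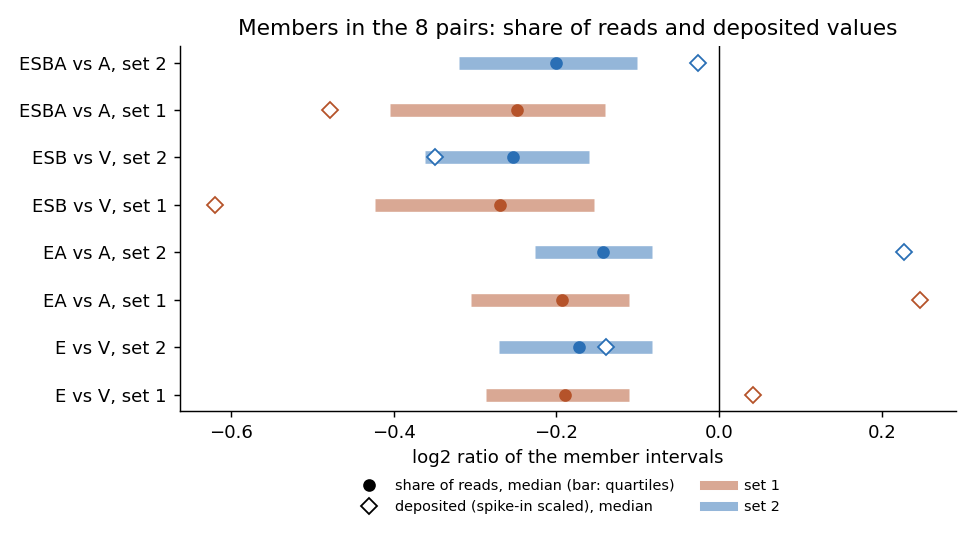
Log2 ratio (x axis, no unit) of the 1360 intervals in the 8 pairs of libraries (y axis). Filled points and bars are the median and quartiles of the share of reads, open diamonds the median of the deposited spike-in scaled values, orange set 1 and blue set 2. The share medians lie between -0.27 and -0.14, as the rule requires them to be below 0, while the diamonds range from -0.62 to 0.25.

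The sequences that follow show the intervals with the lowest mean ratio and the promoters of matrix and signalling genes that lie within members. The first 4 are the central 300 bases of intervals, on the plus strand of mm10, and the others are RefSeq promoters (GRCm38.p6), from 250 bases before the start of the gene to 50 after it. Capitals mark TGANTCA, the core element bound by AP-1, a factor of the Fos and Jun families, read on both strands. The first interval lies at chr7:40078772-40084141 and is named for the noncoding RNA Gm44992, the second in an intron of Nox4 at chr7:87274822-87278628, the third near Npr3 at chr15:11827674-11831389, and the fourth at chr5:77512724-77519825 is named for the noncoding RNA Gm42761. The windows shown are chr7:40081307-40081606, chr7:87276576-87276875, chr15:11829382-11829681 and chr5:77516125-77516424.
Gm44992 interval: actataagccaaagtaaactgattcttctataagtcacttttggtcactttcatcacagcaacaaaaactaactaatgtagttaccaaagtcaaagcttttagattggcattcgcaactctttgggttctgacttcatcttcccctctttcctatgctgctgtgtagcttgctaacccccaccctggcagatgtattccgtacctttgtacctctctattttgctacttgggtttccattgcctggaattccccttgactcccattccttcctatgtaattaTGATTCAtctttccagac
Nox4 interval: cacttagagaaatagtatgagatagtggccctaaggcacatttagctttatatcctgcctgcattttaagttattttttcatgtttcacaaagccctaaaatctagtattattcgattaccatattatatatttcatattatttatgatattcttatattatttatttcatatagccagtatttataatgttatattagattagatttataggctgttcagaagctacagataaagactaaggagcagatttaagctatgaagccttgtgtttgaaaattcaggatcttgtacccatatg
Npr3 interval: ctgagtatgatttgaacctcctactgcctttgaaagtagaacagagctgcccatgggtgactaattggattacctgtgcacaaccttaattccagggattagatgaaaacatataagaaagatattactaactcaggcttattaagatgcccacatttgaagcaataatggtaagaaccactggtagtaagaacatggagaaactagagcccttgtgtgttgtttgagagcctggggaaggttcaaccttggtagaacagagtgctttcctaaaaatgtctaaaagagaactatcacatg
Gm42761 interval: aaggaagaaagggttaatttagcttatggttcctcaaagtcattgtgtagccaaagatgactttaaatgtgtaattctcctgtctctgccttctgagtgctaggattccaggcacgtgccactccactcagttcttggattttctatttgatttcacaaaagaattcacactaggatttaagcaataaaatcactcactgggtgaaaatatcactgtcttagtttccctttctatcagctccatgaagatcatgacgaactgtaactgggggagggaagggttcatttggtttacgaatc
The promoters are those of Edn1 (endothelin-1) at chr13:42301226-42301525 on the plus strand, Sparc (osteonectin) at chr11:55420031-55420330 on the minus strand, Timp1 (an inhibitor of matrix metalloproteinases) at chrX:20869916-20870215 on the plus strand, and Fas (a death receptor) at chr19:34290409-34290708 on the plus strand. Edn1 and Fas were chosen after their values were seen.
Edn1 promoter: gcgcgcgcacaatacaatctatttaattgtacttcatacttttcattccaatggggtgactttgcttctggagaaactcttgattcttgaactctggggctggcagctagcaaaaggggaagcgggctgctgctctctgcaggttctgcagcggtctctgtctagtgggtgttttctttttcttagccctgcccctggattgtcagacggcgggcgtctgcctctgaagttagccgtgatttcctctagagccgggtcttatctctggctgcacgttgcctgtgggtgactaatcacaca
Sparc promoter: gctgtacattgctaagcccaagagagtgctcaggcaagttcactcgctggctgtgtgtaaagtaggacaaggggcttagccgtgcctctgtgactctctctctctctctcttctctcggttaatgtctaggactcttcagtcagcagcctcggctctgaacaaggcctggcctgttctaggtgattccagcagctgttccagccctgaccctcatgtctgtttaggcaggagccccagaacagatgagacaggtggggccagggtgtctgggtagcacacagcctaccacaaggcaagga
Timp1 promoter: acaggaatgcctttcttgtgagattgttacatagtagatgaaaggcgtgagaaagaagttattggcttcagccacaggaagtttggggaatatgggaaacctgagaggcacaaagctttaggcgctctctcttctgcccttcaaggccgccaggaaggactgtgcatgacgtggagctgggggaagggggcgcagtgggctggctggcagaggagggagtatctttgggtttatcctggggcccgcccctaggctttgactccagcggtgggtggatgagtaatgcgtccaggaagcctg
Fas promoter: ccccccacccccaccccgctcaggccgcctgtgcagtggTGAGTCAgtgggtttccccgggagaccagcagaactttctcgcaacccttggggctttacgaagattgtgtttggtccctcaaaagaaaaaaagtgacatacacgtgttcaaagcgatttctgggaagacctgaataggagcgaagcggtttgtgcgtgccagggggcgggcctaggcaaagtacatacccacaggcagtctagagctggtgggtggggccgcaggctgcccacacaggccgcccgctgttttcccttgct
Of these 8 sequences, those of Gm44992 and Fas each held TGANTCA once. In the central 300 bases, TGANTCA was present in 15.3% of the members (13.5% to 17.3%, Wilson 95% interval) and in 13.4% of the other 22728 intervals on assembled chromosomes (12.9% to 13.8%). GGAATG, the element of the TEAD factors, was present in 19.5% of the members (17.5% to 21.7%) and 16.1% of the others (15.6% to 16.5%). The E-box CAGCTG was present in 12.3% (10.6% to 14.1%) and 15.1% (14.6% to 15.5%), the ETS element GGAAGT in 20.1% and 19.6%, and the NFI element TGGCA in 52.6% and 52.1%. With median-of-ratios factors over all intervals the difference in the E-box turned, at 15.97% against 14.9%, while TGANTCA was at 14.3% against 13.4% and GGAATG at 18.99% against 16.1%. The 1211 intervals that were higher in all 8 pairs held TGANTCA in 18.7% (16.6% to 20.95%) and GGAATG in 14.5% (12.7% to 16.6%), so TGANTCA was not particular to the members. All were searched on both strands, and none of these elements contains another. Over whole intervals, the members had a median of 0.389 TGANTCA per kb against 0.340, and the intervals higher in all 8 pairs 0.442. Among RefSeq promoters, TGANTCA was present in 9.76% of the 594 that lie inside a member, in 5.82% of the 12235 inside another interval of the same signal range and in 7.81% of all 32851.

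By the share of reads, the members were longer than the other intervals and lay farther from gene starts. The difference in length was smaller with median-of-ratios factors, and both traits were also seen in the intervals that were higher in all 8 pairs. Within bins of signal, given below, the members were longer only in the upper bins. Their median length was 8726 bp (8161 to 9027 bp, 95% interval of the median) against 5404 bp (5346 to 5468 bp), and 15.96% against 6.55% were 20 kb or longer. Their median mean deposited value was 296 against 151, and 34.1 against 27.5 per kb of interval. With median-of-ratios factors over all intervals, the median length was 6446 bp against 5490 bp, 7.21% against 7.07% were 20 kb or longer, the mean deposited value was 168 against 156, and the value per kb turned to 25.9 against 28.2. By the authors' annotation, 593 of the 1360 members were intergenic, 565 lay in introns, 121 at promoters, 42 in exons and 39 at transcription end sites. The intergenic share was 43.6% (41.0% to 46.3%) against 23.5% (23.0% to 24.1%) of the other intervals, and the promoter share 8.90% (7.50% to 10.5%) against 14.2% (13.7% to 14.6%). Counted the other way, 9.99% of the intergenic intervals were members, 4.73% of the intronic, 3.62% of the promoter, 2.94% of the transcription end and 2.71% of the exonic ones. These intervals of shares and medians treat the intervals as independent, and many neighbour each other.

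A start site of a protein-coding gene (GENCODE vM21) lay inside 20.7% of the members and 34.7% of the others, and the median gap to the nearest such start was 30753 bp against 12878 bp. The nearest gene named by the authors was not protein-coding for 41.5% of the members and 28.6% of the others. CG dinucleotides were less frequent in members, with a median of 10.4 per kb against 13.6, and the median GC content was 45.4% against 46.5%. With median-of-ratios factors over all intervals GC content turned to 46.53% against 46.42%, while a coding start lay inside 13.4% against 35.1% and CG was at 10.6 against 13.6 per kb. The 1211 intervals that were higher in all 8 pairs also lay away from gene starts, with a coding start inside 16.2%, a median gap of 31911 bp, a promoter share of 6.03% and 10.4 CG per kb. Their intergenic share was 33.0% (30.4% to 35.7%), below that of the members, and their median length 6138 bp. The comparison was repeated within 5 bins of equal size by the mean deposited value. From the lowest bin to the highest, 2.07%, 3.28%, 4.83%, 7.01% and 11.01% of the intervals were members. In the highest bin 31.5% of the members and 61.7% of the others covered a coding start, and 38.4% and 16.9% were intergenic. In the lowest bin 8% and 10.99% covered a coding start, and 53% and 28.7% were intergenic. Within the 5 bins the members' median length was 3025, 4206, 5505, 8402 and 17847 bp against 3288, 4339, 5662, 7906 and 15859 bp. The members were thus shorter in the lower bins and longer in the upper ones. The part of read depth in the differences between members and others was not tested. The intergenic share was 41.2% against 23.7% with median-of-ratios factors over all intervals.

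**Figure D2:**
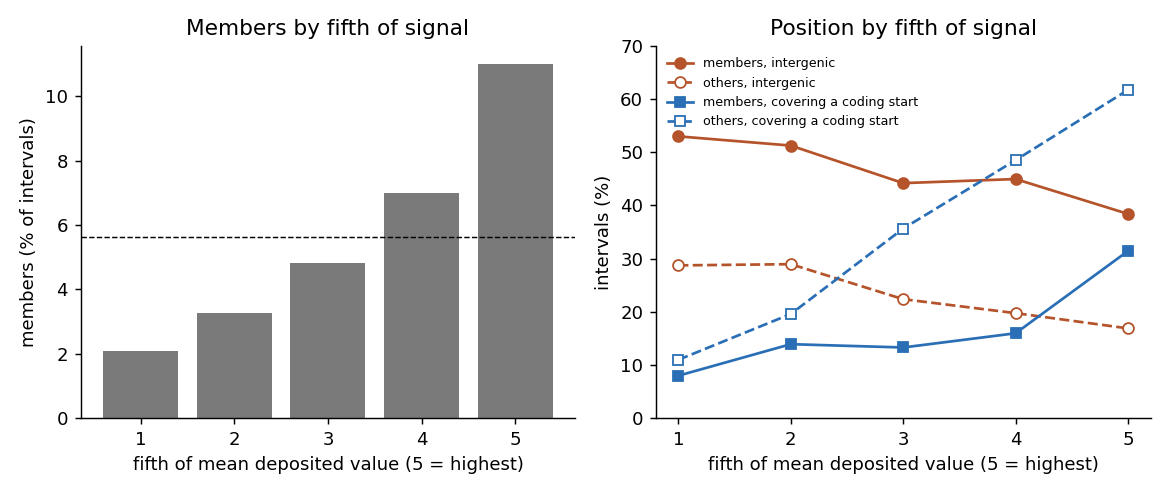
Left, share of intervals that are members (y axis, %) in each of 5 equal bins of the mean deposited value (x axis), with 5.64% as a dashed line. Right, share of members (filled) and other intervals (open) that are intergenic (orange circles) or cover a coding start (blue squares). Membership rises from 2.07% to 11.01% while, within each bin, a larger share of the members is intergenic and a smaller share covers a coding start.

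The decreases in share were modest. The mean log2 ratio over the 8 pairs ranged from -0.72 to -0.04 with a median of -0.22, a share 14.1% lower, and quartiles of -0.30 and -0.16. It was -0.5 or lower in 32 members, between -0.25 and -0.5 in 483, and -0.25 or higher in 845. The median over members of the SD across the 8 ratios was 0.11. By pair, the median log2 ratio was -0.19 and -0.17 for etomoxir, -0.27 and -0.25 for etomoxir + SB204990, -0.19 and -0.14 for etomoxir on acetate, and -0.25 and -0.20 for the 3 agents on acetate (set 1 and set 2). These values describe what the rule selected and were not tested. The error expected from read counts alone had a median between 0.09 and 0.13 in log2 over the 8 pairs, which is close to the size of the smaller decreases. In 426 of the members (31.3%) the 8 etomoxir libraries all lay below the 4 libraries without etomoxir, which is 1.77% of the 24109 intervals, since every interval that meets this condition meets the rule. The 1360 intervals together held 8.75% and 8.59% of the reads in vehicle, 9.04% and 8.79% in acetate, 7.71% and 7.76% in etomoxir, 7.91% and 8.01% in etomoxir + acetate, 7.48% and 7.12% in etomoxir + SB204990, and 7.75% and 7.91% with all 3 agents.

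At the edge of the rule, the highest of the 8 ratios was 0.99997 in an interval named for 2010204K13Rik, which is a member, and 1.0001 in 1 named for 2700069I18Rik, which is not. Their mean log2 ratios were -0.22 and -0.26, so the smallest decrease of the 8 and not the average separated them. The member with the lowest mean deposited value, an intronic interval named for Gm28231, had 50.01. An interval in Slc7a7 that was also lower in all 8 pairs had 49.85 and was left out.

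The 10 members with the lowest mean ratio lay 28726 to 561006 bp from the nearest start of a coding gene. In the Gm44992 interval, whose centre is shown above and which lies 561006 bp from the nearest coding start, the share in RPM was 11.4 and 14.2 in vehicle (set 1 and set 2), 12.2 and 13.7 in acetate, 7.77 and 10.1 in etomoxir, 8.13 and 8.47 in etomoxir + acetate, 5.51 and 7.94 in etomoxir + SB204990, and 6.55 and 8.62 with all 3 agents. The 8 etomoxir libraries lay below the 4 others without overlap, and the mean log2 ratio was -0.72 ± 0.19 (SD over 8 pairs). This interval held 57 to 203 reads per library.

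Nox4 encodes an NADPH oxidase that releases hydrogen peroxide, and 4 of its 7 intervals were members. The lowest of them, in an intron 28726 bp from the start of the gene, had a share in RPM of 9.66 and 7.84 in vehicle, 8.88 and 10.7 in acetate, 5.42 and 6.42 in etomoxir, 6.81 and 5.95 in etomoxir + acetate, 6.84 and 6.41 in etomoxir + SB204990, and 4.67 and 4.47 with all 3 agents. The groups with and without etomoxir did not overlap there either, and the mean log2 ratio was -0.67 ± 0.35. The 3 members upstream of the gene had mean log2 ratios of -0.59, -0.55 and -0.53. Npr3 encodes the clearance receptor for natriuretic peptides. In the interval 75898 bp from its start, the share in RPM was 12.9 and 14.5 in vehicle, 16.01 and 16.5 in acetate, 8.77 and 9.48 in etomoxir, 9.67 and 12.1 in etomoxir + acetate, 7.07 and 10.2 in etomoxir + SB204990, and 8.21 and 10.6 with all 3 agents. Again the 8 etomoxir libraries were the lowest, with a mean log2 ratio of -0.66 ± 0.18.

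The Gm42761 interval, 104683 bp from the start of Igfbp7, a secreted protein that binds insulin-like growth factors, had the lowest maximum of the 8 ratios (0.704). Its share in RPM was 27.7 and 23.7 in vehicle, 38.1 and 33.5 in acetate, 17.3 and 13.9 in etomoxir, 23.9 and 23.6 in etomoxir + acetate, 16.1 and 16.2 in etomoxir + SB204990, and 22.4 and 22.5 with all 3 agents. Acetate libraries were the higher ones on each inhibitor background, and those with etomoxir + acetate overlapped vehicle. The other 6 members among the 10 with the lowest mean were intervals named for A730004F24Rik (133900 bp from Tgfb2, which encodes a TGF-beta ligand), Gm12158 (in an intron of Ebf1, a B-cell transcription factor), Trbv31 (a T-cell receptor segment), Gm48791, Gm10465 and Gpm6b (a membrane proteolipid), with mean log2 ratios between -0.66 and -0.62. The intervals with the lowest maximum ratio also included 1 in an intron of Palld, the actin cross-linker palladin, named for 4930512H18Rik, where the 4 libraries without etomoxir held 39.8 to 46.5 RPM and the 8 with etomoxir 21.7 to 35.4.

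**Figure D3:**
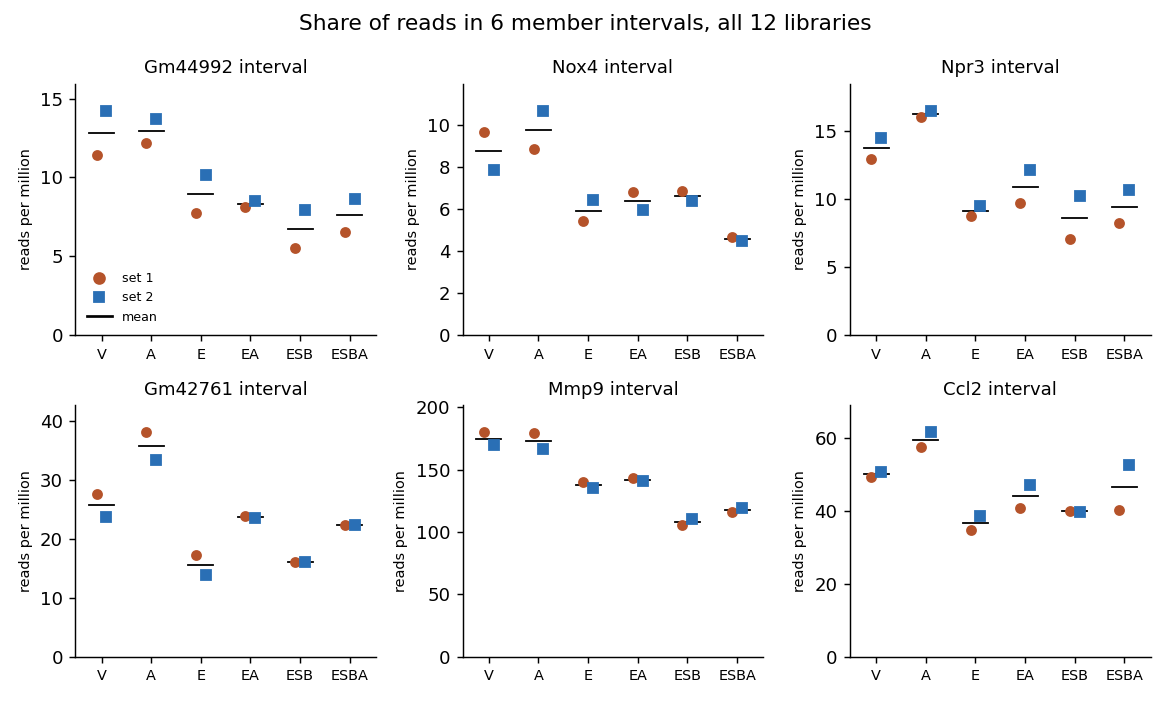
Share of reads in RPM (y axis, from 0) in each of the 12 libraries for 6 member intervals, by treatment (x axis). V is vehicle, A acetate, E etomoxir and SB SB204990, orange circles are set 1, blue squares set 2 and lines the mean of the 2 libraries. In the Gm44992, Nox4, Npr3 and Mmp9 intervals the 8 etomoxir libraries lie below the other 4, and in the Gm42761 and Ccl2 intervals the groups overlap.

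The intervals with the highest signal among the members mostly had small decreases. The 5 with the highest mean deposited value were 2 named for Gm49498, upstream of the proto-oncogene Myc by 436702 and 511841 bp, 1 named for 9230111E07Rik, 1 in Tns3, a focal adhesion protein, and 1 in Atxn7l1 named for F730043M19Rik. Their mean log2 ratios were -0.11, -0.10, -0.14, -0.10 and -0.22, and the last was at the median of all members (-0.22). In the Tns3 interval of 149169 bp, the share in RPM was 827 and 825 in vehicle and 792 and 796 in etomoxir, 912 and 896 in acetate and 842 and 867 in etomoxir + acetate, and 783 and 693 in etomoxir + SB204990. Across the 5 bins of signal, the members' median of the mean log2 ratio went from -0.30 in the lowest to -0.18 in the highest. The part of counting error in this trend was not tested.

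The gene lists below were read against the symbols that the authors gave the intervals, so a list gene under an interval of another symbol is not in the counts. The promoters of Col5a1, Tgfb2 and Tagln2, named after their values were seen (a collagen chain, a TGF-beta ligand and an actin-binding protein) lay in members named for 2810430I11Rik, Gm29491 and Igsf9, with mean log2 ratios of -0.22, -0.20 and -0.08. Of 64 intervals assigned to genes for matricellular and adhesive matrix proteins, 14 were members (21.9%), for 11 genes, and 2 were higher in all 8 pairs. They included 2 intervals each of Postn (periostin), Fn1 (fibronectin) and Ccn4, and intervals of Bgn (biglycan), Loxl1 and Lox (cross-linkers of elastin and collagen), Ccn2 (connective tissue growth factor), Fbn1 (fibrillin-1), Sparc, Spp1 (osteopontin) and Lamc1 (a laminin chain). The 3 lowest mean log2 ratios were -0.47 ± 0.16 in the Bgn interval, -0.40 ± 0.15 in a Postn interval and -0.34 ± 0.13 in the Loxl1 interval. In the Bgn interval the share in RPM was 43.5 and 52.2 in vehicle, 46.3 and 49.4 in acetate, 38 and 39.9 in etomoxir, 34.3 and 37.7 in etomoxir + acetate, 31.6 and 32.0 in etomoxir + SB204990, and 31.0 and 33.0 with all 3 agents. Every etomoxir library was below every other library there. Over all 64 intervals of the list the median mean log2 ratio was -0.07, against 0.00 over the 24109. Collagen genes had 3 members among 33 intervals, by symbol (9.09%, against 5.64% of all intervals). These lay upstream of the genes, 2 of Col1a2 (-0.60 ± 0.29 and -0.40 ± 0.21) and 1 of Col1a1 (-0.29 ± 0.11), the chains of type I collagen.

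Matrix proteases and their inhibitors had 6 members among 31 intervals (19.4%), among them those of Mmp9, Adam12 (2 intervals), Serpine2 and Timp1, and none that was higher in all 8 pairs. The Mmp9 interval of 40104 bp covers the start of the gene for this gelatinase, and had a share in RPM of 179.8 and 169.9 in vehicle, 179.3 and 166.8 in acetate, 140.2 and 135.1 in etomoxir, 143.3 and 140.7 in etomoxir + acetate, 105.9 and 110.5 in etomoxir + SB204990, and 116.1 and 119.1 with all 3 agents. The 6 groups fell into 3 levels, with both groups without etomoxir highest and both groups with SB204990 lowest, and the mean log2 ratio was -0.47 ± 0.18. For Adam12, a membrane metalloproteinase, the promoter interval had a mean log2 ratio of -0.31 ± 0.16 and the upstream interval -0.33 ± 0.08. The mean log2 ratio was -0.25 for Serpine2, which encodes an inhibitor of serine proteases, and -0.16 for Timp1.

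Cytokines and chemokines had 7 members among 39 intervals (17.9%), 1 each for Ccl2, Ccl5, Vegfc, Cxcl5, Cxcl12, Tslp and Csf1, while 1 interval was higher in all 8 pairs. Ccl2 draws monocytes, and the interval over its promoter had a share in RPM of 49.5 and 50.8 in vehicle, 57.6 and 61.7 in acetate, 34.9 and 38.6 in etomoxir, 40.9 and 47.2 in etomoxir + acetate, 40.2 and 39.7 in etomoxir + SB204990, and 40.4 and 52.7 with all 3 agents. The library with all 3 agents in set 2 lay above both vehicle libraries, and the mean log2 ratio was -0.40 ± 0.10. Csf1, the growth factor of macrophages, lay under a member of 52624 bp with a mean log2 ratio of -0.12, and the interval of the lymphangiogenic factor Vegfc had -0.24 ± 0.17.

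The remaining lists had 0 to 4 members each, and the TGF-beta, epithelial, growth factor and integrin lists, at 7.27%, 6.82%, 5.46% and 5.41%, were near the 5.64% of all intervals. The TGF-beta pathway had 4 among 55 intervals, for the latent TGF-beta binding protein Ltbp1, the receptor Tgfbr1 and the repressors Skil and Ski. Transcription factors of the epithelial-to-mesenchymal transition had 3 among 26 (11.5%, 2 of Tcf4 and 1 of Sox4) with 2 intervals higher in all pairs. Epithelial junction and keratin genes had 3 among 44 (Tjp1, Cldn3 and Krt14) with 3 higher. Growth factors and their receptors had 3 among 55 (Pdgfb, Hbegf and Igf1r), integrins 2 among 37 (Itgb3 and Itgb1), fatty acid oxidation and PPAR targets 2 among 51 (Acadvl and Ppargc1b) and NRF2 targets 1 among 21 (Pir). In the fatty acid oxidation and PPAR list 22 of the 51 intervals (43.1%) were higher in all 8 pairs, against 1211 of all 24109 intervals. In the 5 bins of signal the share of intervals higher in all 8 pairs was 4.31% to 5.91%. No member carried the symbol of genes of the actin cytoskeleton and YAP targets (37 intervals), AP-1 factors (10), fatty acid synthesis and acetyl-CoA supply (23), histone acetylation writers, erasers and readers (30), the integrated stress response (23), glucose uptake and glycolysis (22), or the cell cycle and Myc (29). Under other rules, which choose other sets of intervals, the counts in the matricellular, protease, cytokine and transition factor lists were 12, 3, 4 and 3 with median-of-ratios factors over all intervals (1290 intervals in all), and 15, 7, 7 and 3 (1578 in all) without the etomoxir + SB204990 library of set 2. On the deposited values (17 in all) they were 0, 0, 1 and 0. How many of the original members were among them was not counted by list. The lists were scored with the contrasts that chose the members, so the counts are a description. The endothelial gene Pecam1, used to check the cell type, also had a member, with a mean log2 ratio of -0.21.

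**Figure D4:**
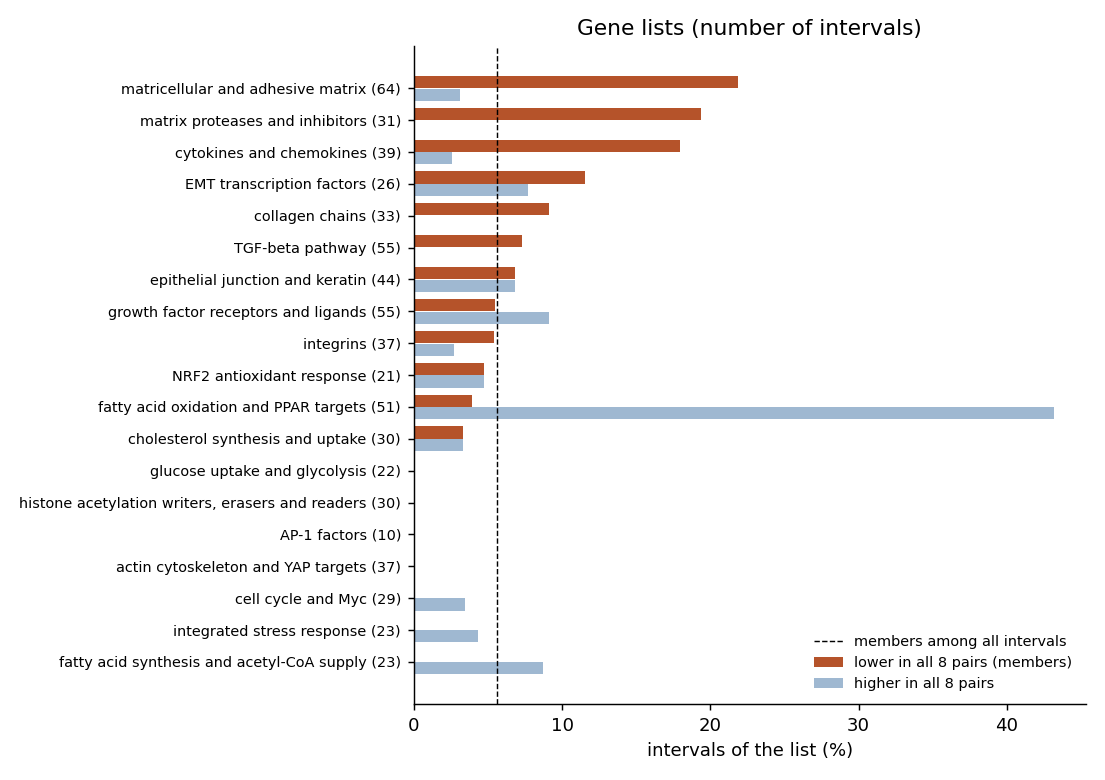
Share of the intervals of each gene list (x axis, %) that was lower in all 8 pairs (orange) or higher in all 8 pairs (blue), with the number of intervals of the list in brackets and 5.64%, the share of members among the 24109 intervals, as a dashed line. Matricellular (21.9%), protease (19.4%) and cytokine (17.9%) genes have the longest orange bars, and fatty acid oxidation and PPAR targets the longest blue bar (43.1%). The dashed line refers to the orange bars only, and 1211 of the 24109 intervals were higher in all 8 pairs.

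Joining members with a gap of at most 100000 bp gave 1011 neighbourhoods, of which 786 held 1 member, 165 held 2 and 60 held 3 or more, with 244 members in the last. The 1360 members carried 1170 gene symbols, and 22 symbols had 3 or more. By chromosome, leaving out Y with no member, the share of members ranged from 3.78% (chromosome 19) to 8.05% (chromosome 1). The neighbourhoods named in the next sentences were chosen after their values were seen.

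The largest neighbourhood, at chr1:71633441-72124570, held 12 members among 21 intervals over 491130 bp and no interval that was higher in all 8 pairs. It began with an interval of 22655 bp that covered the start of Fn1 and was named for Apol7d by the authors, with a mean log2 ratio of -0.25. The other 11 members lay upstream of Fn1, with mean log2 ratios between -0.45 and -0.14. In the window drawn around the Fn1 start there were 39 intervals, and none farther downstream than the start interval was a member.

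**Figure D5:**
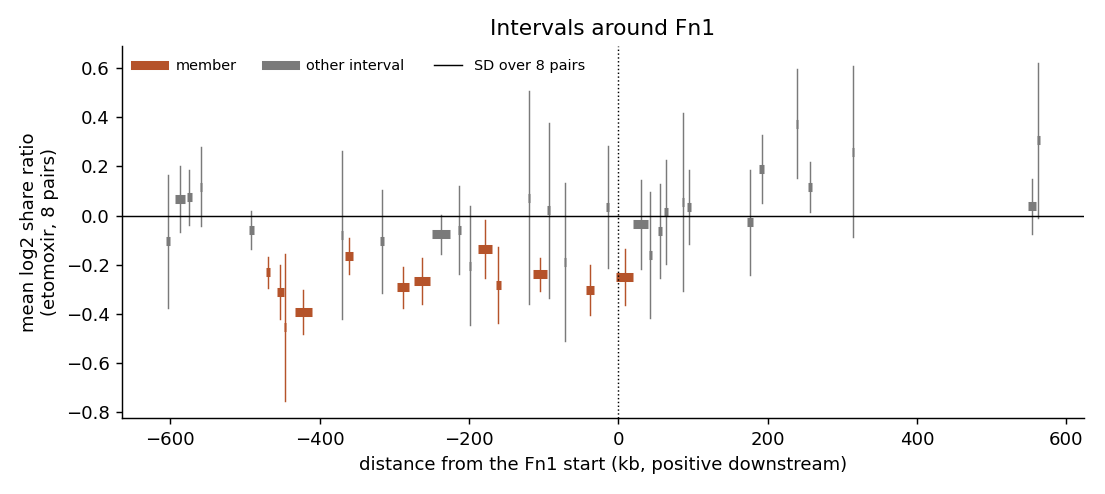
Mean log2 share ratio over the 8 pairs (y axis) of the 39 intervals around Fn1 by distance from its start (x axis, kb, positive in the direction of transcription). Each bar spans the interval, orange for members and grey for others, and thin lines are the SD over the 8 pairs. The 12 members run from the Fn1 start into the upstream region, with means between -0.45 and -0.14.

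Inside Rad51b, a DNA repair gene, 9 of the 14 intervals assigned to the gene were members, with mean log2 ratios from -0.36 to -0.19. At Edn1, the gene for the vasoconstrictor endothelin-1, all 5 intervals named for Gm47118 were members, over chr13:42298648-42377620. The first covered the Edn1 start, and its share in RPM was 50.1 and 44.7 in vehicle, 53.9 and 58.6 in acetate, 42.4 and 38.8 in etomoxir, 45.9 and 47.4 in etomoxir + acetate, 35.9 and 40.1 in etomoxir + SB204990, and 39.6 and 44.6 with all 3 agents. The mean log2 ratio was -0.31 ± 0.12 there and -0.54 ± 0.15 in the last, 70751 bp from the start. All 3 intervals named for Gm42761 near Igfbp7 and all 3 of the Src-family kinase Fgr were members as well, and 4 of the 7 named for 4930461C15Rik at Dcbld2. Of the other symbols with most members, Zfp469 had 5 of 7 intervals, Gm14064 5 of 9, Gm48503 5 of 13 and Gm47143 4 of 5, and none of these symbols had an interval that was higher in all 8 pairs.

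The next comparison asked whether acetate changed the members' share, which the rule did not use, although the same 12 libraries entered both. Averaged over the 3 backgrounds (none, etomoxir, and etomoxir + SB204990), acetate raised the share of 41 members and lowered that of 2 at an adjusted p under 0.05 (limma on log2(RPM + 0.1), Benjamini-Hochberg over 24109 intervals). Of all intervals 0.552% were called higher and 0.178% lower. The median log2 change was 0.07 over the members and 0.01 over all intervals, and 28.7% of the members against 45.6% of all had a change below 0. The share was higher in all 6 acetate pairs of the same set in 390 members (28.7%), and in 8.48% of all intervals. It was lower in all 6 in 65 members (4.78%) and in 5.12% of all intervals. By pair, the members' median log2 ratio was 0.05 and 0.04 for acetate against vehicle, 0.04 and 0.07 on etomoxir, and 0.07 and 0.11 on etomoxir + SB204990, and that of all intervals lay between -0.0014 and 0.027. In the 5 bins of signal the members' medians were 0.10, 0.06, 0.07, 0.06 and 0.06 from the lowest bin up, against 0.05, 0.04, 0.01, -0.01 and -0.01 for the other intervals.

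The number of members called depended on single libraries. It was between 1 and 8 higher when either vehicle, acetate, etomoxir, etomoxir + acetate or etomoxir + SB204990 + acetate library was left out, 136 when etomoxir + SB204990 in set 1 was left out and 233 when it was left out in set 2. Over all intervals 1.97% were called higher and 0.987% lower in the former fit, and 6.54% and 4.87% in the latter. With median-of-ratios factors over all intervals it was 0, and with the same factors over the 24109 intervals 26. On the deposited values 1357 members (99.78%) were called higher and 0 lower, as were 99.14% of all intervals, and the median change was 0.69 over the members and 0.64 over all intervals. The difference between the 2 medians on the share scale stayed between 0.04 and 0.06 over the 12 fits without 1 library.

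The member with the lowest p lay 24899 bp from the start of Ranbp3l, which encodes a nuclear export factor, at chr15:8937755-8943050. Its share in RPM was 22.5 and 25.8 in vehicle and 37.5 and 39.8 in acetate, 17.8 and 18.2 in etomoxir and 26.7 and 28.8 in etomoxir + acetate, and 20.5 and 20.8 in etomoxir + SB204990 and 33.0 and 36.7 with acetate added. Both acetate libraries were above both others on each background, and those with etomoxir + acetate were also above vehicle. The average change was 0.68 ± 0.06 (SE, limma adjusted p = 0.0012), and the adjusted p stayed between 3.06e-04 and 0.0175 when single libraries were left out. An interval of 22387 bp in Sorbs2, an adaptor of the actin cytoskeleton, named for Gm16351, changed by 0.43 ± 0.05 (limma adjusted p = 0.0078), from 92.9 and 90.1 RPM in vehicle to 129.5 and 130.4 in acetate. Its limma adjusted p was 0.0655, 0.0545, 0.0691 and 0.0603 without the etomoxir library of set 2, the etomoxir + acetate library of set 1 or set 2, or the set 2 library with all 3 agents. Another interval, named for Gm15997 and 44191 bp from Hsph1, which encodes a heat shock protein, changed by 0.37 ± 0.05 (limma adjusted p = 0.014). The Gm15997 interval missed the threshold, at 0.0515 to 0.0874, without either etomoxir, either etomoxir + acetate, the set 1 acetate, the set 1 vehicle or the set 2 library with all 3 agents.

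Other members called higher with acetate, named after their values were seen, included the Gm42761 interval (0.52 ± 0.07, limma adjusted p = 0.014), an interval of 28356 bp at Ccn4, a matricellular protein of the WNT pathway (0.23 ± 0.05, limma adjusted p = 0.047), an interval of Bmf, a pro-apoptotic BCL2 relative (0.40 ± 0.06, limma adjusted p = 0.016), and 1 of the Rad51b intervals (0.30 ± 0.06, limma adjusted p = 0.042). The 2 members called lower were named for Gm28881 (-0.27 ± 0.06) and D030068K23Rik (-0.28 ± 0.06). For matrix and cytokine genes named above, the average acetate change was -0.04 ± 0.06 in the Bgn interval, 0.05 ± 0.04 in the Mmp9 interval, 0.24 ± 0.07 in the Ccl2 interval and 0.23 ± 0.05 in the Col1a1 interval, none of which passed the test (limma adjusted p = 0.80, 0.59, 0.12 and 0.054).

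A second comparison was that of SB204990 added to etomoxir, averaged with and without acetate. The rule did not use it, but the libraries on both of its sides had been chosen as lower than the same controls, so its calls among members are not independent of the choice. No member was called in limma, where 218 of the 1360 had an unadjusted p under 0.05, and none in edgeR, where 221 had. Over all 24109 intervals 0 were called, with 1514 and 1611 at an unadjusted p under 0.05. The median log2 change was -0.06 over the members and -0.02 over all intervals. The share was lower in all 4 pairs of the same set in 388 members (28.5%) and in 9.62% of all intervals. It was higher in all 4 in 31 members (2.28%) and in 5.64% of all intervals. Without the etomoxir + SB204990 library of set 2, which stood apart, it was lower in the remaining 3 pairs in 558 members (41.0%) and in 28.1% of all intervals. It was higher in those 3 pairs in 163 members (11.99%) and in 21.5% of all intervals, and the 1 interval called among all 24109 was a member. Without the library of set 1, 6 members were called lower and 0 higher, while over all intervals 15 were called lower and 68 higher. On the deposited values 1230 members (90.4%) were called lower, as were 69.07% of all intervals, with a median change of -0.46 over the members and -0.41 over all intervals.

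The lowest p values belonged to the Mmp9 interval, with -0.31 ± 0.05, an interval in an intron of Abcg1, a cholesterol exporter, with -0.54 ± 0.09, and an interval in Il18rap, a subunit of the interleukin-18 receptor, with -0.47 ± 0.08, each with a limma adjusted p of 0.485. Without the etomoxir + SB204990 library of set 1 the limma adjusted p was 0.0116 for Mmp9, 0.0302 for Abcg1 and 0.0641 for Il18rap, and without that of set 2 it was 0.068, 0.048 and 0.068. With any of the other libraries left out it was between 0.553 and 1 for all 3 intervals. In the Abcg1 interval the share in RPM was 19.3 and 20.7 in etomoxir and 13.0 and 16.9 with SB204990 added, and 23.2 and 23.6 in etomoxir + acetate and 15.3 and 14.6 with SB204990 added. Vehicle stood at 20.4 and 23.7, and of the etomoxir libraries without SB204990, 1 without acetate and 2 with it lay within that range. For Mmp9, Abcg1 and Il18rap all 4 same-set pairs were lower with SB204990.

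The difference between the etomoxir change with acetate (etomoxir + acetate against acetate) and without it (etomoxir against vehicle) is made of ratios that the rule required to be below 1, so it was given without a test. Its median was 0.01 over the members, with quartiles of -0.05 and 0.07, and 0.01 over all intervals. An interval named for Bms1, a ribosome biogenesis gene, lay far above these quartiles, with a difference of 0.50, and is not typical of the members. Its share in RPM was 17.6 and 16 in vehicle, 10.9 and 10.4 in etomoxir, 14.4 and 11.8 in acetate and 12.9 and 10.7 in etomoxir + acetate. Both ratios were below 1 there, as in every member, and the lower one was that without acetate.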

How the data were processed

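H3K27ac ChIP-seq was analysed in 12 libraries of 4T1 cells, 2 for each of 6 treatments, grouped by the labels. As the labels and the paper's methods state, the authors aligned reads to a merged mouse (mm10) and human (GRCh38) genome with the nf-core/chipseq workflow, used deepTools, and multiplied the counts in mouse intervals by a factor from the human spike-in. The number of libraries behind the interval calls is not given in the sources used here. The deposited values are a scaled signal, and in 2 libraries the factor was 1, so these deposited values are read counts. In every library 100% of the values came out as whole reads (within 0.001 reads of a whole number, widened in proportion to the value above 10 reads), and the recovered reads gave the shares. The signed distance to the nearest start, a score in the deposited table, and the gene symbols and classes are those of the authors. Whether an interval acts on its nearest gene was not measured. No input library was used here.

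RPM are recovered reads per 1000000 reads in intervals, not a deposited unit. Members had a mean deposited value of 50 or more and a share ratio below 1 in all 8 pairs. The members, the gene lists and the tests were chosen with earlier results of these data known. Of the 462 list entries, 415 matched a symbol of the table, 4 of them through RefSeq synonyms. The acetate and SB204990 contrasts, which are not ratios of the rule, and the interaction of etomoxir and acetate, which is a difference of such ratios and is given without a test, went into limma (3.58.1, under R 4.3.3) as log2(RPM + 0.1), which slightly understates changes of weak intervals, with 6 group means over 12 libraries, an intensity trend and Benjamini-Hochberg adjustment over 24109 intervals. edgeR's quasi-likelihood test (version 4.0.16) on the recovered reads was an alternative, as were other scalings, pseudocounts and filters, and leaving out each library. The limma step was tested on simulated data. The ratios chosen by the rule were given without a test. The SD beside a mean ratio is over the 8 pairs, which share denominators.

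Sequences were read from GRCm38.p6, the same build as mm10 (200 of 200 sampled RefSeq promoters matched by coordinates), with pysam. The text names the 10 members with the lowest mean log2 ratio, the 5 with the highest signal, the 5 with the lowest maximum ratio, those at the edges of the rule, the 6 symbols with most members, up to 3 members per list and up to 3 per contrast with the lowest p. Others are marked in the text as picked with values known, or are given as further members of a list. Reads in intervals numbered 7179165 to 16676442 per library, and intervals of shares cover counting error only. Results for some genes are not reported here.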

Additional observations from a re-analysis of the deposited data

How the results depend on the processing

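The rule chose 1360 intervals. It chose 17 on the deposited values and 178 with every ratio under 0.9, and with libraries left out 1463 to 4799, the highest without set 2, since fewer pairs are easier to meet. The number of members called higher with acetate (41) was 1357 on the deposited values, 17 with a mean of at least 10, 0 with median-of-ratios factors, 26 with such factors over the 24109 intervals, 10 without an intensity trend, and 1 to 233 with a library left out. The number called lower (2) was 0 on the deposited values, with a mean of at least 10, with median-of-ratios factors and without a trend, and 0 to 21 with a library left out. Of members called lower with SB204990 (0), the deposited values gave 1230 and leaving out a library 0 to 6. The cause was not tested, except that the deposited values add the spike-in factors.

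Whether the suffixes pair the libraries was not settled, and the main fit assumed no pairing. Over 15 pairs of groups the correlation of deviations ranged from -0.325 to 0.602 with a median of -0.0535. The spike-in factor was 1 in etomoxir + acetate of set 1 and in etomoxir + SB204990 of set 2. With the suffix as a replicate block, 78 members were called higher and 5 lower with acetate, of 223 and 88 over all intervals (133 and 43 without the block), while 0 members were called for SB204990 and the calls of the 3 intervals named for acetate held. The members' median length was 9969 bp with a mean of at least 100, 6446 bp with median-of-ratios factors and 7806 bp without the etomoxir + SB204990 library of set 2, and their median central GC content was 47.3% against 47% of the others with median-of-ratios factors, where it had been 46.3% against 47%. The share with the E-box, the GC content and the value per kb also turned under these factors. The intergenic and promoter shares and the shares with TGANTCA and GGAATG stayed within the 95% intervals of the main values under the 4 alternatives run. With 2 libraries per group and a median decrease of 14.1%, counting error limits what single intervals show.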
